A study of Mus musculus with 9 samples.

Results

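The proteasome genes described here are the 50 protein-coding mouse genes whose symbol is Psm followed by one of the letters a to g and a number, out of 22092 genes with a row in the count tables. The symbol alone set membership, and this rule was chosen with earlier results of these data known. Each gene was represented by the transcript with the highest summed level. Of these 50 genes, 49 encode proteasome subunits, activators, an inhibitor or assembly chaperones, and the remaining symbol, Psmc3ip, belongs to a protein of meiotic recombination that is no part of the proteasome. Enough reads for a test were counted for 47 of the 50, and Psme2, Psmb3 and Psmb11 were not tested.

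Messenger RNA bound to astrocyte ribosomes was sequenced from mice of the strain Aldh1L1 JD130 (genotype tg:Aldh1L1-L10aGFP) at 2 months of age, in which the ribosomal protein L10a fused to GFP is expressed under the control of the Aldh1l1 promoter. Translating ribosome affinity purification (TRAP), an immunoprecipitation of the tagged ribosomes, was performed on whole brains, with 1 brain per library (3 "whole astrocyte TRAP" libraries), and on purified brain vessels, to whose surface the perivascular endfeet of astrocytes remain attached, with the vessels of 8 mice pooled per library (6 "endfeet TRAP" libraries). All 9 libraries carried the same transgene and the labels name no treatment. The compared groups differed in the tissue put into the purification, in the number of mice per library and in the library series described below. The study's methods also give more homogenizer strokes for vessels than for brains, and cycloheximide in all buffers of the vessel isolation. Purified vessels also consist of endothelial and mural cells, whose markers are given below, and the choroid plexus was removed from the whole brains.

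The proteasome degrades proteins that carry chains of ubiquitin. Its 20S core is a barrel of alpha rings, which gate the entry, and beta rings, which hold the catalytic subunits Psmb5, Psmb6 and Psmb7, while the 19S regulatory particle on its ends recognizes, unfolds and threads the substrate through a ring of ATPases. In cells exposed to interferon, and constitutively in immune cells, the subunits Psmb8, Psmb9 and Psmb10 take the places of Psmb5, Psmb6 and Psmb7 and form the immunoproteasome, whose peptides are loaded onto MHC class I molecules. The genes of the constitutive subunits are regulated together in many cells, and the transcription factor Nfe2l1 raises them through antioxidant response elements when proteasome activity falls short.

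Depth differed between the groups, at 35984144 to 43521208 gene counts in the whole astrocyte TRAP libraries and 2319495 to 13450588 in the endfeet TRAP libraries. A count of 3 corresponded to at most 0.0834 counts per 1000000 gene counts in the former and to at most 1.29 in the latter, so low levels were measured less firmly in the endfeet TRAP libraries. The spread between libraries differed as well, with a coefficient of variation over the 47 genes of 5.34% (median) in the whole astrocyte TRAP libraries and 51.98% in the endfeet TRAP libraries. By their library numbers, endfeet TRAP libraries 1 to 3 form 1 series and endfeet TRAP libraries 4 to 6 form another together with the 3 whole astrocyte TRAP libraries. What a series stands for is not stated, and values within the second series are given below where they change the call of a proteasome gene. Levels are counts per 1000000 gene counts, scaled by TMM (CPM), and differences are log2 fold changes of endfeet over whole astrocyte TRAP from edgeR's quasi-likelihood test, with p-values adjusted by Benjamini-Hochberg over the 14427 genes tested and a threshold of 0.05.

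The promoter sequences of the called catalytic subunits Psmb6, Psmb8 and Psmb9, without Psmb7, and of the other called genes that hold an antioxidant response element, are shown because these genes carry the contrast between the lower and the higher proteasome genes. Sequences are RefSeq sequences of the build GRCm38.p6, given in the direction of transcription, and capitals mark a match to a searched motif. The Psmb6 sequence holds the 250 bases before the RefSeq start (chr11:70525107-70525356, plus strand), and the capitals at its end are an antioxidant response element (TGACNNNGC).
Psmb6: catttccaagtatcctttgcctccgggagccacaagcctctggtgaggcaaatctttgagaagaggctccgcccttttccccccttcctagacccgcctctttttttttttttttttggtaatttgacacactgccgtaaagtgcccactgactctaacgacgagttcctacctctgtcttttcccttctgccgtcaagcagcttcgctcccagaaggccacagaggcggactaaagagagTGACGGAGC
The other sequences are stretches of 30 bases around the match. For Psmd9 (chr5:123228149-123228178, plus strand), Psmd12 (chr11:107479278-107479307, plus strand) and Psme4 (chr11:30771758-30771787, plus strand) the capitals mark the same element, on the other strand in the latter pair. For Psmb8 (chr17:34198088-34198117, plus strand) they mark a gamma activated site (TTCNNNGAA), and for Psmb9 (chr17:34187331-34187360, minus strand) a CCAAT box on the other strand.
Psmd9: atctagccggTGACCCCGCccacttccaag
Psmd12: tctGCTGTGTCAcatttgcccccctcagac
Psme4: cgctgcggctGCAGCGTCAccagaagagcc
Psmb8: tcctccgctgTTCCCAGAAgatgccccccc
Psmb9: cctgcaccgcgcgcagccgctgATTGGaaa
A RefSeq window from 250 bases before to 50 bases after a start was found for 42 of the 50 genes, with its start at most 434 bases from that of the counted coding transcript. Both strands were searched. The antioxidant response element was found in 6 of the 42 windows (14.3%), against 12.4% of all 32851 windows. Of these 6 genes, 4 passed the test, Psmb6, Psmd9 and Psmd12 as lower and Psme4 as higher in endfeet TRAP. Among all 42 genes with a window, 12 were lower and 3 were higher. Of all genes tested, 34.6% were called in either direction. A link of the element to the calls was not tested. The CCAAT box was found in 14 windows (33.3%, against 37.4%), the gamma activated site in 3 (7.14%, against 8.298%) and the interferon stimulated response element in 5 (11.9%, against 3.44%). The 5 windows with an interferon stimulated response element were those of Psmb3, Psmd4, Psmd9, Psme1 and Psmg4, and those of Psmb8 and Psmb9 held no match to it.

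Most proteasome genes were at lower levels in endfeet TRAP than in whole astrocyte TRAP, and the immunoproteasome subunits Psmb8 and Psmb9 were at higher levels. Of the 47 genes tested, 16 were lower (34.04%), against 13.9% of all genes tested, and 3 were higher (6.38%), against 20.7% of all genes. The 3 higher genes were Psmb8, Psmb9 and Psme4. The log2 fold change was negative for 40 of the 47 genes, including 24 of the 28 that did not pass the test. Its median was -0.97, beside 0.10 over all genes, of which 47.9% were negative. In bulk libraries, fewer cells or cell parts of a kind and less RNA in each cannot be told apart.

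**Figure D1:**
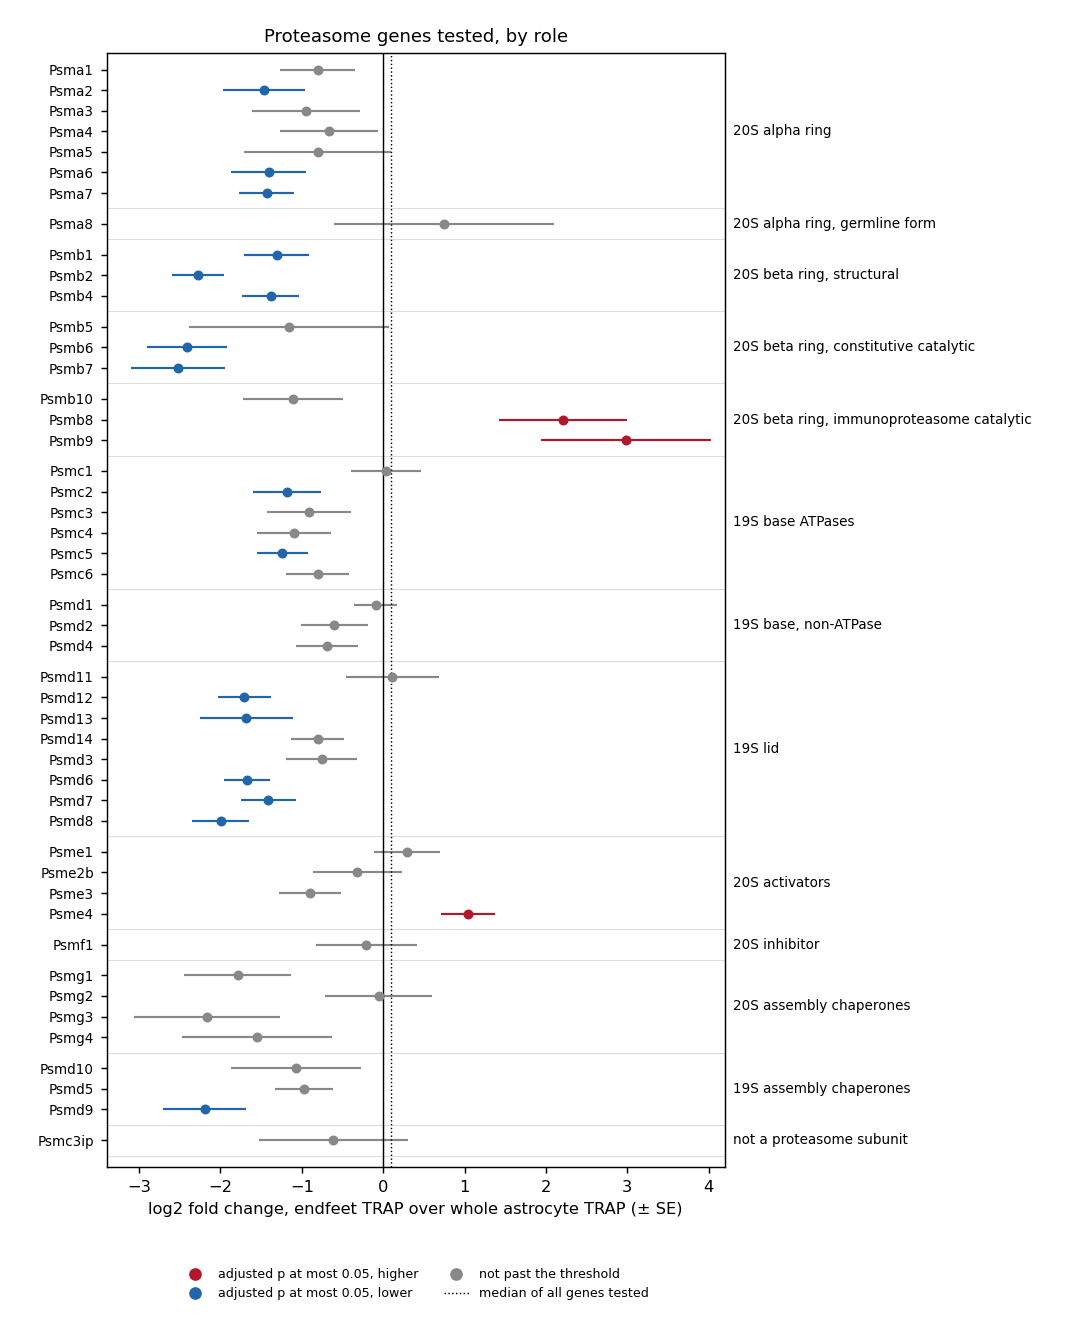
Log2 fold change of endfeet over whole astrocyte TRAP (x axis, bars are the SE of the fit) for each of the 47 proteasome genes tested, in blocks by role. Blue points are the 16 lower and red points the 3 higher genes, and the blue points lie in the alpha ring, the beta ring, the ATPases, the lid and the chaperone Psmd9.

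The separation held across libraries. All 6 endfeet TRAP libraries were below all 3 whole astrocyte TRAP libraries for 27 of the 47 genes, against 23.8% of all genes tested, and all 6 were above for Psme4 alone, against 18.9% of all genes. For another 10 genes, 5 of the 6 endfeet TRAP libraries were below. Counted by library, 39 to 43 of the 47 genes lay below all whole astrocyte TRAP libraries in endfeet TRAP libraries 1 to 5. Of all genes tested, 48.1 to 53.7% did so in these libraries. In endfeet TRAP library 6, the library with the fewest counts, 32 of the 47 lay below, against 54.5% of all genes. The 50 genes together took 0.386, 0.415 and 0.412% of the gene counts in the whole astrocyte TRAP libraries. In the endfeet TRAP libraries their share was 0.147% at the lowest and 0.2403% at the highest, so the groups did not overlap in this share.

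**Figure D2:**
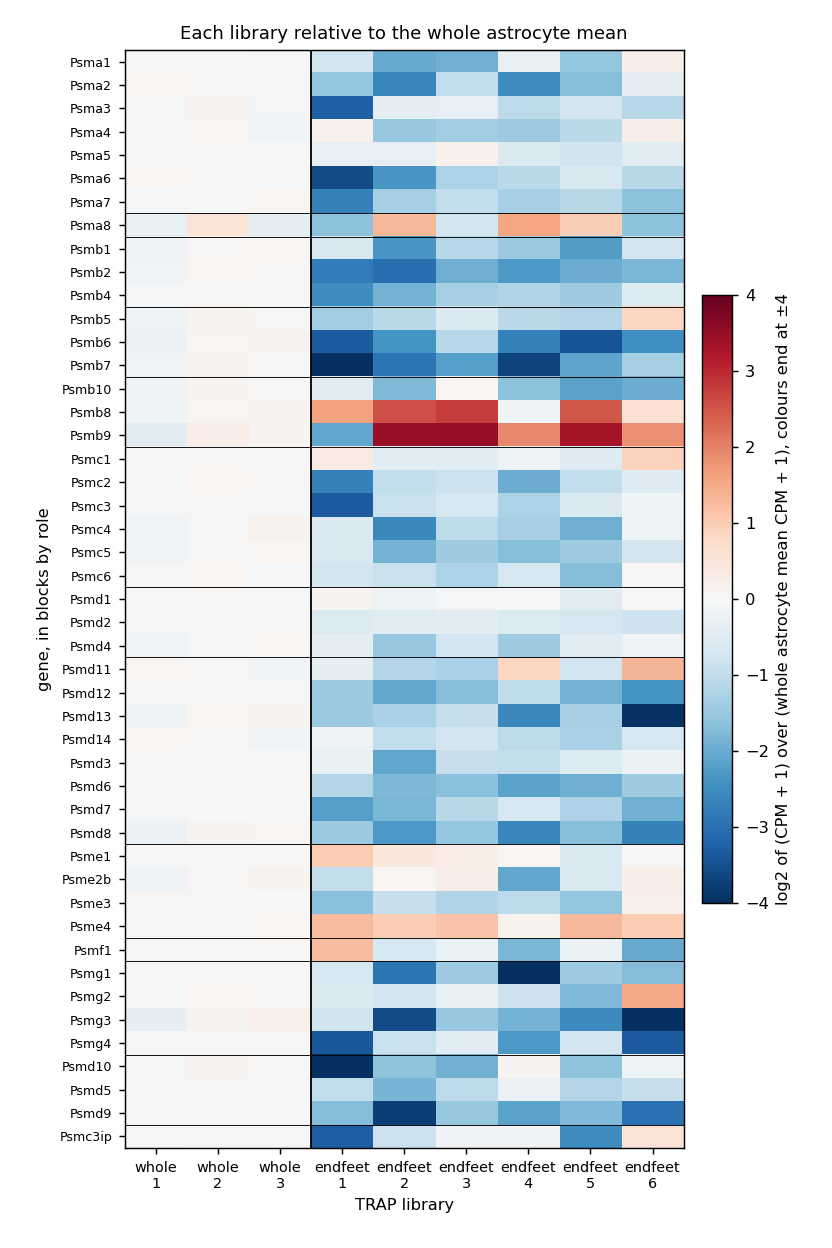
Level of each proteasome gene tested in each library (columns), as the log2 of CPM + 1 over the whole astrocyte mean + 1, with genes in blocks by role and colours that end at 4 in either direction. The 6 endfeet columns are mostly blue, Psmb8, Psmb9 and Psme4 are red in at least 5 of them, and Psmb9 is blue in endfeet library 1.

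The calls of lower genes rested on the constitutive 26S particle, that is the alpha and beta rings with their constitutive catalytic subunits and the 19S base and lid. Of its 30 subunits tested, 15 were lower (50%, against 13.9% of all genes tested) and 0 were higher (against 20.7%) by edgeR's quasi-likelihood test. Of these subunits 17 had an unadjusted p under 0.05, and DESeq2 and limma voom also called 0 higher. Their median log2 fold change was -1.17. The 20S core accounted for 8 of 13 (61.5%) and the 19S particle for 7 of 17 (41.2%). The sixteenth lower gene was Psmd9, a chaperone of 19S assembly. The calls of 11 of the 16 lower genes held in all 9 fits that left out 1 library and in all 11 other alternatives, namely Psma7, Psmb2, Psmb4, Psmb6, Psmb7, Psmc5, Psmd6, Psmd7, Psmd8, Psmd9 and Psmd12. Within the second library series 19 of the proteasome genes were lower (19.7% of all genes) and 1 was higher (19.5% of all genes), and with the library series as a covariate 13 were lower (11.6%) and 0 were higher (18.6%).

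Within the alpha ring, 3 of 7 subunits were lower (42.9%, against 13.9% of all genes tested). Psma6 was at 307, 289 and 283 CPM in the whole astrocyte TRAP libraries, and its lowest, median and highest levels in the endfeet TRAP libraries were 23.6, 128 and 186 CPM (log2 fold change -1.41, SE 0.46, adjusted p = 0.0304). Psma7 was at 178, 186 and 198 CPM against 27.96, 73.8 and 94.1 CPM (log2 fold change -1.43, SE 0.34, adjusted p = 0.00515). Both were lower in every endfeet TRAP library than in any whole astrocyte TRAP library, and Psma6 was the most abundant subunit per length in both groups, at 281 ± 12.1 and 106 ± 56.7 CPM per kilobase of the coding transcript (SD, n = 3 and 6). Psma2 was at 63.6, 60.97 and 57.8 CPM against 9.19, 18.9 and 46.6 CPM and again did not overlap between the groups (log2 fold change -1.46, SE 0.51, adjusted p = 0.03999). The call of Psma2 was lost within the second library series (log2 fold change -1.45, adjusted p = 0.0783). The calls of Psma2 and Psma6 were lost in 5 of the 9 fits that left out 1 library, and with the library series as a covariate (adjusted p = 0.135 and 0.147). Psma1, Psma3, Psma4 and Psma5 did not pass the test, with log2 fold changes between -0.95 and -0.67. The germline alpha subunit Psma8 was at 1.51, 3.41 and 1.43 CPM against 0, 3.04 and 8.21 CPM, with 3 endfeet TRAP libraries above and 3 below all whole astrocyte TRAP libraries (log2 fold change 0.75, 95% interval -2.17 to 3.67).

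All 3 structural beta subunits that were tested were lower, against 13.9% of all genes tested. Psmb2 (chr4:126677630-126709714, plus strand) was at 166, 189.9 and 184 CPM in the whole astrocyte TRAP libraries, and the endfeet TRAP libraries ranged from 21.5 over a median of 40.2 to 50.2 CPM. Its mean fell by 4.83-fold and its adjusted p was the smallest of the 47 (log2 fold change -2.27, SE 0.32, adjusted p = 0.000141). Psmb4 was at 216, 228 and 235 CPM against 39.96, 85.5 and 153 CPM (log2 fold change -1.38, SE 0.35, adjusted p = 0.00791). Psmb1 was at 106, 122 and 124 CPM against 22.6, 46.6 and 74.3 CPM (log2 fold change -1.31, SE 0.40, adjusted p = 0.0228). The groups did not overlap for any of these 3 genes. For Psmb1 the call was lost in 3 of the 9 fits that left out 1 library. The fourth structural subunit, Psmb3, was not tested, with 0.432, 0.662 and 0.614 CPM in the whole astrocyte TRAP libraries.

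Among the constitutive catalytic subunits, Psmb6 and Psmb7 showed the strongest decreases of all proteasome genes. Psmb6 (chr11:70525367-70527858, plus strand), which carries the caspase-like activity and whose promoter is printed above, was at 87.04, 108 and 112 CPM in the whole astrocyte TRAP libraries, and at 8.403, 16.3 and 46.1 CPM at the lowest, median and highest in the endfeet TRAP libraries. Its mean decreased 5.34-fold (log2 fold change -2.41, SE 0.49, adjusted p = 0.002201). Psmb7 (chr2:38588036-38644087, minus strand), which carries the trypsin-like activity, was at 90.96, 107 and 98.4 CPM against 3.38, 16.7 and 38.4 CPM, a 5.703-fold decrease of the mean (log2 fold change -2.53, SE 0.58, adjusted p = 0.00451). Every endfeet TRAP library lay below every whole astrocyte TRAP library for both genes, by the widest margin in endfeet TRAP library 1 for Psmb7 and in endfeet TRAP libraries 1 and 5 for Psmb6. Within the second library series the decreases were -3.05 and -2.30 on the log2 scale (adjusted p = 0.000944 and 0.0182). Exons of Psmb7 overlap 405 bases of exons of Nek6 on the opposite strand, and strand use in the counting is not given in the sources used here.

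Psmb5, which carries the chymotrypsin-like activity, was hardly counted. It was at 1.32, 1.77 and 1.69 CPM in the whole astrocyte TRAP libraries and at 0, 0.236 and 3.65 CPM in the endfeet TRAP libraries, where library 6 alone lay above 1 CPM (log2 fold change -1.16, SE 1.23, adjusted p = 0.495). Reads that aligned more than once had been removed, and 87.8% of the stretches of 50 bases in its coding transcript, the length of a read, occur with at most 2 mismatches in a transcript of another gene. Its value is therefore uncertain in both groups.

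**Figure D3:**
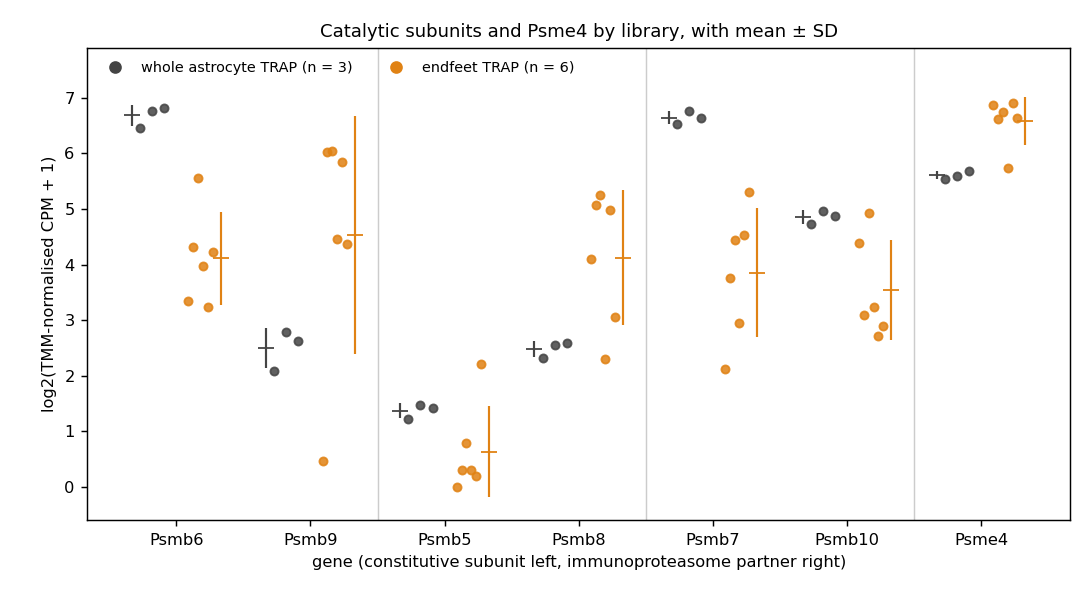
Levels of the catalytic subunits and of Psme4 in each library as log2(CPM + 1) (y axis), with whole astrocyte TRAP in grey (n = 3) and endfeet TRAP in orange (n = 6), and the mean and SD beside the points. The orange points lie below the grey ones for Psmb6 and Psmb7 and above them for Psme4, and 5 of 6 lie above for Psmb8 and Psmb9.

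Of the immunoproteasome subunits, Psmb8 and Psmb9 were higher and Psmb10 did not pass the test. Psmb9 (chr17:34181987-34187764, minus strand) was at 3.24, 5.88 and 5.201 CPM in the whole astrocyte TRAP libraries. In endfeet TRAP libraries 1 to 6 it was at 0.375, 64.1, 65.1, 20.9, 56.4 and 19.6 CPM. Thus 5 libraries were above and library 1 was below all whole astrocyte TRAP libraries, and the mean was 7.91-fold higher (log2 fold change 2.99, SE 1.04, adjusted p = 0.0414). Without endfeet TRAP library 1 the log2 fold change was 3.25 (adjusted p = 0.00102). Without any one of the other libraries but endfeet TRAP library 6 the call was lost, with log2 fold changes of 2.71 to 3.15 and adjusted p-values of up to 0.1401. Within the second library series it was 2.63 (adjusted p = 0.0113). Psmb9 lies head to head with Tap1, and 212 bases of their exons overlap on opposite strands. A coding transcript of Psmb9 outside Tap1 was counted at 3.53 ± 0.927 CPM in the whole astrocyte TRAP libraries (SD, n = 3) and at 27.9 ± 20.7 CPM in the endfeet TRAP libraries (SD, n = 6), a 7.92-fold higher mean.

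Psmb8 (chr17:34197721-34201454, plus strand) was at 3.97, 4.87 and 5.004 CPM in the whole astrocyte TRAP libraries. Its levels in endfeet TRAP libraries 1 to 6 were 16.1, 32.7, 37.2, 3.94, 30.4 and 7.31 CPM, so that library 4 was just below the whole astrocyte range and the other 5 were above it. The mean was 4.61-fold higher (log2 fold change 2.21, SE 0.79, adjusted p = 0.0451). The call was lost without any one of the whole astrocyte TRAP libraries or of endfeet TRAP libraries 2, 3 and 5, with adjusted p-values of 0.0777 to 0.1498, and within the second library series (log2 fold change 1.46, adjusted p = 0.195). Exons of Psmb8 overlap 186 bases of the gene model Gm20496 on the opposite strand. Psmb10 was at 25.5, 30.1 and 28.4 CPM in the whole astrocyte TRAP libraries and at 5.53, 7.98 and 29.5 CPM in the endfeet TRAP libraries, with 5 of the 6 below (log2 fold change -1.11, SE 0.62, adjusted p = 0.1805). Within the second library series, the difference of Psmb10 was -2.17 on the log2 scale (adjusted p = 0.00634).

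Each immunoproteasome subunit was set against the constitutive partner whose place it takes, as a log2 ratio of CPM + 1 within each library, which does not depend on the scaling between libraries except through the added 1. The ratio of Psmb9 to Psmb6 was -4.38, -3.997 and -4.20 in the whole astrocyte TRAP libraries. In the endfeet TRAP libraries 1 to 6 it was -2.71, 1.71, 0.49, 0.48, 2.61 and 0.13. It was higher in 6 of 6 endfeet TRAP libraries than in any whole astrocyte TRAP library. The ratio was positive in 5 endfeet TRAP libraries. This sign does not show which subunit is more abundant, because the coding transcripts differ in length (1352 and 798 bases). Per kilobase of the coding transcript, Psmb9 lay above Psmb6 in endfeet TRAP libraries 2 (47.4 against 23.6 CPM) and 5 (41.7 against 10.5 CPM). It lay below in libraries 1, 3, 4 and 6. Psmb6 also shares 35.2% of its sequence with other genes. The difference of the means of the ratio was 4.65 (exact two-sided permutation test, p = 0.0119, and 0.0357 when adjusted over the 3 ratios). The unadjusted p is the smallest that the 84 splits allow. The difference was 5.27 within the second library series, where 3 against 3 libraries cannot reach the threshold. For Psmb8 to Psmb5 the means were 1.12 ± 0.042 and 3.46 ± 1.67, with 5 of 6 endfeet TRAP libraries above, and the exact permutation test did not pass the threshold (adjusted p = 0.143). The difference of 2.34 was 1.41 within the second library series and 3.64 with 0.1 CPM added in place of 1. Psmb5 was at 1.32 to 1.77 CPM in the whole astrocyte TRAP libraries and at a median of 0.236 CPM in the endfeet TRAP libraries, near or under the added 1. Because 87.8% of its sequence is shared with other genes, this ratio does not show which subunit is more abundant and is uncertain in both groups. For Psmb10 to Psmb7 the means were -1.79 ± 0.023 and -0.32 ± 1.68, with 4 of 6 above (exact permutation test, adjusted p = 0.25), and the difference of 1.47 was 0.47 within the second library series.

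**Figure D4:**
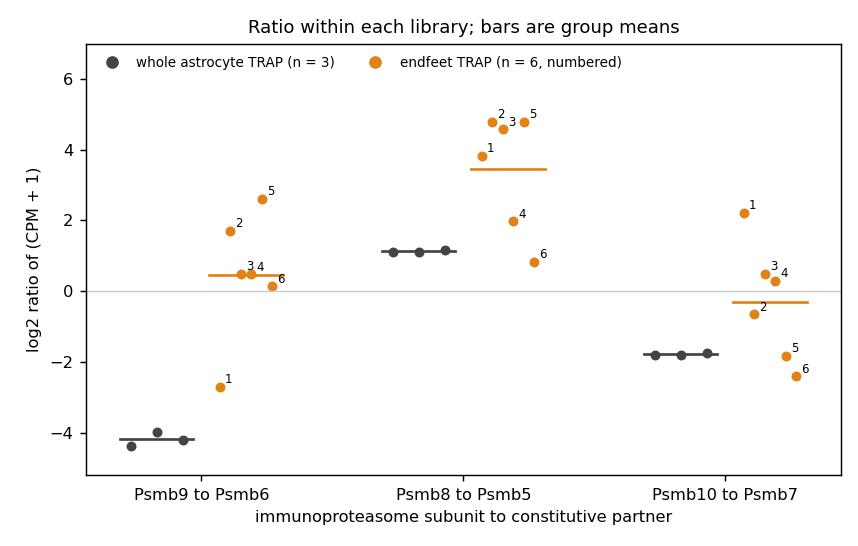
Log2 ratio of CPM + 1 of each immunoproteasome subunit to its constitutive partner (y axis) in each library, with whole astrocyte TRAP in grey, endfeet TRAP in orange and numbered, and group means as bars. The Psmb9 to Psmb6 ratio lies near -4.19 in the 3 whole astrocyte libraries and above it in all 6 endfeet libraries, and the other ratios overlap. Psmb5 was hardly counted, so the Psmb8 to Psmb5 ratio is uncertain in both groups.

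Most of the listed genes that work with the immunoproteasome were higher as well. The list was chosen with earlier results of these data known, so its share is no independent test. Of 13 regulators of the interferon response and genes of peptide transport and loading, all tested, 10 were higher (76.9%, against 20.7% of all genes) and 0 were lower (0 at an unadjusted p under 0.05 with a negative change, and 0 lower by DESeq2 and by limma voom), with a median log2 fold change of 2.23. Nlrc5, the transactivator of MHC class I genes, had a mean of 0.443 ± 0.2296 against 12.1 ± 9.51 CPM (log2 fold change 4.75, SE 1.25, adjusted p = 0.0103). Tap1, a subunit of the peptide transporter into the endoplasmic reticulum that shares its promoter region with Psmb9, had 0.483 ± 0.219 against 10.7 ± 5.71 CPM (log2 fold change 4.46, SE 0.97, adjusted p = 0.00315). Tapbp, which loads peptides onto MHC class I, had 13.5 ± 0.854 against 153 ± 29.1 CPM (log2 fold change 3.51, SE 0.33, adjusted p = 0.00000466). The other peptide genes called higher with the largest changes were Tap2 (log2 fold change 3.33) and Erap1, the peptidase that trims the peptides (3.14). All 6 endfeet TRAP libraries lay above all 3 whole astrocyte TRAP libraries for each of the 10. Irf8, Ifngr1 and Ifngr2 did not pass the test, at log2 fold changes of 1.21 to 1.71. Without 1 whole astrocyte TRAP library 5 or 6 of the 13 were higher, and with the replicate block 6 were. The call of Tap2 was lost without any one of these libraries (adjusted p of up to 0.113) and that of Nlrc5 without library 1 or 2 (up to 0.0587), while those of Tap1, Tapbp and Erap1 held in all 9 fits that left out 1 library.

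Markers of several other cell types were called higher as well, and none of the neuron or oligodendrocyte markers was. These lists, too, were chosen with earlier results of these data known. All 10 endothelial markers were higher, with a summed level of 46.6 to 56.4 CPM in the whole astrocyte TRAP libraries and 4146 to 5649 CPM in the endfeet TRAP libraries. The sums were 36.5 to 38.03 against 3571 to 8115 CPM for mural cells (10 of 10 higher), 48.5 to 77.7 against 971 to 2354 CPM for fibroblasts (8 of 8), 23.1 to 27.9 against 317 to 538 CPM for microglia and macrophages (9 of 12) and 1.54 to 2.81 against 30.5 to 112 CPM for erythroid cells (3 of 3 tested of 5). For lymphocytes they were 11.1 to 18.4 against 773 to 5901 CPM (5 of 5 tested of 12 listed), where Irf4 and Pou2af1 made up most of the sum, Cd3e and Cd79a were at means of 1.07 and 0.0929 CPM in the endfeet TRAP libraries, and endfeet TRAP library 6 was highest. The sums of neurons (3446 to 4002 against 978 to 1984 CPM, 3 of 8 lower) and oligodendrocytes (688 to 709 against 247 to 567 CPM, 2 of 8 lower) did not overlap either. Single markers went both ways, with 6 negative and 2 positive log2 fold changes for neurons (median -1.43). For oligodendrocytes 4 were negative and 4 positive (median -0.15). Of the 10 astrocyte markers, 1 was higher (Aqp4) and 4 were lower, with sums of 22259 to 24350.4 against 9572 to 29547 CPM, and Aldh1l1 itself was at 258 ± 14.4 against 49.5 ± 27.5 CPM (log2 fold change -2.38, SE 0.43, adjusted p = 0.000936). The part of these other cells in the levels of Psmb8, Psmb9 and the genes around them, and in the lower levels of the constitutive subunits, was not tested.

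In the lid of the 19S particle, which removes the ubiquitin chains, 5 of 8 subunits were lower (62.5%, against 13.9% of all genes tested). In its base, which unfolds the substrate, 2 of 9 were, which is nearer to that share. Psmd8 was at 125, 159 and 156 CPM in the whole astrocyte TRAP libraries and at 21.5, 36.8 and 51.8 CPM at the lowest, median and highest in the endfeet TRAP libraries (log2 fold change -1.998, SE 0.35, adjusted p = 0.000742). Psmd6 was at 166, 163 and 170.4 CPM against 37.03, 49.4 and 73.4 CPM (log2 fold change -1.67, SE 0.28, adjusted p = 0.000587). For Psmd12 the levels were 151, 148 and 142 CPM against 26.95, 41.5 and 72.7 CPM (log2 fold change -1.71, SE 0.33, adjusted p = 0.00136). For each of these 3 genes the highest endfeet level stayed below the lowest whole astrocyte level. Psmd7 was at 171, 178 and 180.5 CPM against 37.3, 61.6 and 109 CPM (log2 fold change -1.41, SE 0.34, adjusted p = 0.00592). Psmd13 was at 48.8, 60.3 and 61.6 CPM against 2.74, 20.98 and 29.7 CPM (log2 fold change -1.68, SE 0.57, adjusted p = 0.0353). Its call was lost in 4 of the 9 fits that left out 1 library, and 342 bases of its exons overlap exons of Sirt3 on the opposite strand. The remaining lid genes did not pass the test. Among them is Psmd14, the enzyme that removes the ubiquitin chain, at 86.9 ± 5.56 against 49.7 ± 13.9 CPM with no overlap between the groups (log2 fold change -0.81, SE 0.32, adjusted p = 0.0684), and it passed within the second library series (log2 fold change -1.15, adjusted p = 0.0136). Psmd11 was at 68.8, 65.98 and 60.7 CPM against 26.02, 43.7 and 168 CPM, with endfeet TRAP libraries 4 and 6 above and the other 4 below the whole astrocyte range (log2 fold change 0.11, SE 0.57, adjusted p = 0.896).

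Both lower subunits of the base were ATPases, of which 6 were tested. Psmc5 was at 177, 195 and 203 CPM against 51.4, 70.1 and 125 CPM (log2 fold change -1.24, SE 0.32, adjusted p = 0.00897) and was the most abundant 19S subunit per length in both groups. Psmc2 was at 121, 131 and 124 CPM against 18.2, 62.4 and 87.7 CPM (log2 fold change -1.19, SE 0.42, adjusted p = 0.0427), a call that was lost in 4 of the 9 fits that left out 1 library and with the library series as a covariate (adjusted p = 0.138). Psmc3 and Psmc4 did not overlap between the groups and did not pass the test (adjusted p = 0.187 and 0.0789, edgeR), and neither did Psmc1 and Psmc6. The scaffold Psmd1, whose log2 fold change had the smallest SE of the 47 genes, was at 95.5 ± 3.42 CPM (SD, n = 3) in the whole astrocyte TRAP libraries and 89.5 ± 12.2 CPM (SD, n = 6) in the endfeet TRAP libraries, with a 95% interval of the log2 fold change of -0.66 to 0.48. That interval excludes the log2 fold changes of Psmb6, Psmb7 and Psmb2. The ubiquitin receptor Psmd4 and the scaffold Psmd2 did not pass the test either, at -0.69 and -0.60.

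Compared per kilobase of the coding transcript, among the subunits with at most 50% of their sequence shared with other genes, the median level of the 10 constitutive 20S subunits was 137 CPM per kilobase for whole astrocyte TRAP and 35.2 in endfeet TRAP. For the 15 19S subunits it was 56.4 and 27.05. With the subunits of more shared sequence included, the medians were 75.98 and 19.5 for the 14 20S subunits and 43.8 and 24.9 for the 17 19S subunits, so that the order of the 20S core and the 19S particle in endfeet TRAP turned with the choice of subunits.

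Some of the subunits with much shared sequence were counted at low levels. Of the 50 genes, 8 shared over 50% of their stretches of 50 bases with transcripts of other genes, and 27 shared none. The 8 were Psme2b (94.5%), Psmb5 (87.8%), Psme2 (81.6%), Psmb3 (79.4%), Psma5 (73.2%), Psmd2 (72.97%), Psmc1 (67.8%) and Psma4 (57.3%). Psmb3, Psma5 and Psmb5 were at 0.755, 0.791 and 1.78 CPM per kilobase in whole astrocyte TRAP, while Psma6 and Psmb2, which stand beside them in the same rings of the particle, were at 281 and 209. Others of the 8 were not low, with Psmc1 at 23.6 and Psme2b at 36.4 CPM per kilobase in whole astrocyte TRAP, against 22.2 for Psmd3. None of the 8 passed the test in either direction (6 tested by edgeR, 0 with an unadjusted p under 0.05), while DESeq2 called 1 and limma voom 2 of them lower. Without them 16 of 41 genes tested were lower (39.0%, against 13.9% of all genes) and 3 were higher (7.32%, against 20.7%). Reads of these genes that also fit another place in the genome had been removed, so their values are uncertain.

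**Figure D5:**
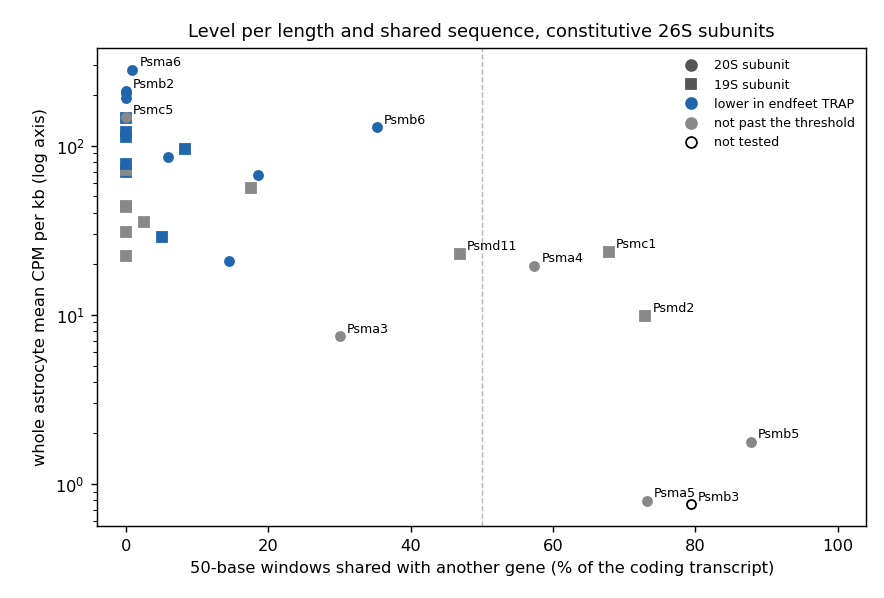
Whole astrocyte mean level per kilobase of the coding transcript (y axis, log scale) against the share of stretches of 50 bases found in another gene (x axis) for the 31 constitutive 26S subunits. The subunits lower in endfeet TRAP (blue) lie below 50% shared sequence, and Psma5, Psmb3 and Psmb5 lie lowest, between 0.755 and 1.78.

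Of the proteins that cap the core in place of the 19S particle, 1 of 4 tested was higher (25%, against 20.7% of all genes tested). Psme4 (chr11:30771726-30880361, plus strand), which encodes the activator PA200, was at 45.7, 47.03 and 50.7 CPM in the whole astrocyte TRAP libraries and at 52.6, 102 and 119 CPM at the lowest, median and highest in the endfeet TRAP libraries. It was the only one of the 47 genes with every endfeet TRAP library above every whole astrocyte TRAP library, the lowest being library 4 (log2 fold change 1.04, SE 0.33, adjusted p = 0.0268). The call was lost without endfeet TRAP library 5 (adjusted p = 0.0769), without any one of the whole astrocyte TRAP libraries (0.0958 to 0.115) and within the second library series (log2 fold change 0.78, adjusted p = 0.106). Psme1, a subunit of the interferon-inducible activator PA28, was at 40.6, 39.2 and 39.3 CPM against 25.5, 45.1 and 81.8 CPM, with 5 of 6 endfeet TRAP libraries above (log2 fold change 0.29, SE 0.40, adjusted p = 0.603), and its log2 fold change was -0.27 within the second library series. Its partner Psme2 was at 0.595, 1.16 and 1.097 CPM in the whole astrocyte TRAP libraries and was not tested. Psme2 shares 81.6% of its stretches of 50 bases with other genes, among them Psme2b, so its level is uncertain. Psme2b, at 94.5% shared, was at 30.5 ± 2.73 against 24.5 ± 12.6 CPM and did not pass the test (log2 fold change -0.32, SE 0.54, adjusted p = 0.686). Psme3, the nuclear activator, was at 149 ± 6.78 against 80.3 ± 45.8 CPM and did not pass the test, with 5 of 6 endfeet TRAP libraries below (log2 fold change -0.90, SE 0.38, adjusted p = 0.0857). The inhibitor Psmf1 did not pass it either (log2 fold change -0.21, SE 0.62, adjusted p = 0.823).

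None of the 4 chaperones of 20S assembly passed the test (0 by edgeR, 2 with an unadjusted p under 0.05, 2 by DESeq2 and 3 by limma voom). Psmg1 was at 40.5, 38.5 and 41.3 CPM against 1.53, 12.6 and 24.2 CPM (log2 fold change -1.79, SE 0.66, adjusted p = 0.0516). Psmg3 was at 20.9, 29.5 and 31.2 CPM against 0, 5.26 and 15.2 CPM (log2 fold change -2.17, SE 0.89, adjusted p = 0.0767). Psmg4 was at 13.5, 12.99 and 13.9 CPM against 0.375, 4.41 and 9.86 CPM (log2 fold change -1.55, SE 0.92, adjusted p = 0.214). For all 3, every endfeet TRAP library lay below the whole astrocyte range, and the range among the endfeet TRAP libraries was wide. Within the second library series Psmg1 (log2 fold change -2.30, adjusted p = 0.04397) and Psmg3 (log2 fold change -2.98, adjusted p = 0.04203) passed the test. Psmg2 was at 28.7 ± 1.54 against 27.97 ± 28.8 CPM, with library 6 above and 5 libraries below (log2 fold change -0.056, SE 0.66, adjusted p = 0.956). Of the 19S assembly chaperones, Psmd9 was at 63.7, 64.9 and 64.4 CPM against 3.79, 15.99 and 21.9 CPM, with no overlap (log2 fold change -2.20, SE 0.51, adjusted p = 0.00485). Psmd5 was at 90.3 ± 1.36 against 46.1 ± 17.2 CPM, again with no overlap, and just missed the threshold (log2 fold change -0.97, SE 0.36, adjusted p = 0.0508), while Psmd10 was at 52.6 ± 3.72 against 25.1 ± 21.7 CPM with library 4 above (log2 fold change -1.08, SE 0.80, adjusted p = 0.318).

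The genes that feed and regulate the proteasome did not move one way. Their list was also chosen with earlier results of these data known. Of 36 such genes, 35 were found and 34 were tested. Of these 9 were lower (26.5%, against 13.9% of all genes) and 5 were higher (14.7%, against 20.7%), with a median log2 fold change of -0.44. Pomp, the maturation chaperone of the 20S core, was at 228 ± 2.82 against 108 ± 45.4 CPM (log2 fold change -1.08, SE 0.34, adjusted p = 0.0277). Akirin2, which brings assembled proteasomes into the nucleus, was at 289 ± 5.84 against 63.7 ± 32.8 CPM (log2 fold change -2.19, SE 0.37, adjusted p = 0.000592). Shuttle factors that carry ubiquitinated proteins to the proteasome were lower, among them Rad23b (-1.42), Ubqln2 (-1.42) and Ubqln1 (-1.35), and so was Ufd1, a cofactor of the segregase Vcp (-1.25), while Ubqln4 did not pass the test (log2 fold change 0.31, SE 0.58, adjusted p = 0.708). Zfand5, a proteasome-binding zinc finger protein, was lower by 2.79-fold of the mean (log2 fold change -1.48, SE 0.42, adjusted p = 0.0159). Without 1 whole astrocyte TRAP library, 5 or 6 genes of the list were lower, and the calls of Pomp, Zfand5 and Ufd1 were lost whichever it was (adjusted p of up to 0.101, 0.0995 and 0.125), that of Ufd1 also without endfeet TRAP library 2.

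Of the 5 higher genes of this pathway, 3 belong to a list of 7 genes of the Nfe2l1 pathway. This list was likewise chosen with earlier results of these data known. Of these 7, all tested, 3 were higher (42.9%, against 20.7% of all genes) and 1 was lower (14.3%, against 13.9%). Nfe2l1 was at 85.9 ± 6.13 against 363 ± 95.3 CPM (log2 fold change 2.08, SE 0.30, adjusted p = 0.000184). Ddi2, the protease that activates the Nfe2l1 protein, was at 45.3 ± 3.62 against 194 ± 53.4 CPM (log2 fold change 2.10, SE 0.31, adjusted p = 0.000177). Mafg, a small Maf partner with which Nfe2l1 binds DNA, was at 32.2 ± 2.33 against 452 ± 419 CPM (log2 fold change 3.81, SE 0.63, adjusted p = 0.000452). Its highest value was 1304 CPM in endfeet TRAP library 6, and without that library the endfeet mean was 282 ± 45.2 CPM (log2 fold change 3.13, adjusted p = 0.00000393). All 6 endfeet TRAP libraries were above all whole astrocyte TRAP libraries for these 3 genes. The activity of the Nfe2l1 protein was not measured. A link of these levels to those of the constitutive subunits, and the part of other cells in them, was not tested. The related factor Nfe2l2 was lower, at 264 ± 3.72 against 131 ± 18.99 CPM (log2 fold change -1.02, SE 0.23, adjusted p = 0.00382), and Ngly1, Maff and Mafk of the same list of 7 did not pass the test. The other higher genes were Ubr4, a ubiquitin ligase that binds the proteasome, at 37.7 ± 2.12 against 195 ± 36.1 CPM (log2 fold change 2.37, SE 0.29, adjusted p = 0.0000415), and Faf2, an adaptor of the segregase Vcp, at 19.6 ± 1.53 against 47.5 ± 17.5 CPM (log2 fold change 1.28, SE 0.46, adjusted p = 0.0442). The call of Faf2 was lost without any one library except endfeet TRAP libraries 1 and 6 (adjusted p of up to 0.164), while those of Nfe2l1, Ddi2, Mafg, Nfe2l2 and Ubr4 held in all 9 such fits.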

How the data were processed

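The 9 TRAP libraries (3 whole astrocyte, 6 endfeet) were grouped by the labels. Per the labels and the study's methods, the authors amplified polysomal RNA (NuGEN Ovation), sequenced reads of 50 bases, aligned them with Bowtie 0.12.9 to mm10, removed reads with more than 1 alignment and counted with HTSeq 0.5.3 on Ensembl 75, with bcl2fastq 1.8.4 before. The deposited values are raw counts per transcript. Here 73164 of 75466 transcripts (96.9%) were matched to GENCODE genes of GRCm38, and the transcript with the highest summed CPM stood for each gene. Totals were 2319495 to 43521208 gene counts, and precision is limited by depth in endfeet TRAP.

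edgeR 4.0.16 (R 4.3.3; TMM, filterByExpr, quasi-likelihood test, group only, Benjamini-Hochberg) was fitted on 14427 genes. Ratios used log2(CPM + 1) and exact permutation tests in Python 3.11.15. Shared sequence was searched with blastn 2.17.0 in stretches of 50 bases with at most 2 mismatches. The scripts were tested on simulated data. Values of some listed genes that are no proteasome subunits are not reported here. Alternatives used DESeq2 1.42.0, limma 3.58.1, other filters, transcripts, depths and library sets. Named were the catalytic subunits, each member past the threshold and, of the others, the 3 largest changes in each direction; of the other lists at most 5 past it in each direction, and further genes of these lists were named after their values were seen. The members and lists were chosen with earlier results of these data known. The methods give 1 brain or 8 pooled mice per library, and the p-values measure the spread between libraries. Lengths, positions and sequences came from GENCODE and RefSeq tables.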

Additional observations from a re-analysis of the deposited data

Results flagged for a closer look

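In 8 of 53 groups of 6 endfeet values examined (the 50 genes and the 3 ratios), a single library stood apart from the other 5 by more than Dixon's critical value of 0.625 of the range, which chance gives in about 1 in 20 groups. Library 6, the shallowest, was the high one for 3 genes. The activator Psme3 was at 170.4 CPM in library 6, against 46.2 to 77.6 CPM in the other 5. The 20S chaperone Psmg2 was at 85.9 CPM in library 6, against 7.81 to 23.1 CPM in the other 5. Psmb5 was at 3.65 CPM in library 6, against 0 to 0.723 CPM in the other 5. Library 3 was the high one for Psmb6, with 46.1 CPM in library 3, against 8.403 to 18.8 CPM in the other 5, and still below every whole astrocyte TRAP library. It was so again for the barely counted Psmb3, with 1.45 CPM in library 3, against 0 to 0.483 CPM in the other 5, and for the thymic subunit Psmb11, with 0.526 CPM against 0 in the other 5. Library 1 was high for the inhibitor Psmf1, with 138 CPM in library 1, against 13.2 to 46.9 CPM in the other 5. Library 4 was low for Psme4, with 52.6 CPM in library 4, against 97.7 to 119 CPM in the other 5, the level nearest to the whole astrocyte range.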

How the results depend on the processing

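The count of 16 lower genes was 11 to 23 without 1 library, where the share of all genes is not given. It was 13 to 21 under the other alternatives except limma voom, where 11.6 to 23.3% of all genes were lower. Limma voom with group weights gave 32 (31.1% of all genes). The median log2 fold change of -0.97 was -1.15 to -0.85 without 1 library, -1.34 with voom and -1.37 with the replicate block. The 3 higher calls were less firm, with 0 left when the library series was a covariate and 1 (Psmb9) within the second series. Without 1 library 0 to 3 were left (0 without any one of the whole astrocyte libraries or endfeet library 5, and 1 without endfeet library 2 or 3). Under the other alternatives 2 or 3 were left, where 15.8 to 27.7% of all genes were higher. The Psmb9 to Psmb6 difference of 4.65 was 4.66 with 0.1 CPM added (exact permutation test, adjusted p = 0.0714), 5.27 within the second series (exact permutation test, adjusted p = 0.30) and 4.22 to 5.28 without 1 library, where the splits left cannot pass the adjusted threshold.

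Same-numbered libraries did not deviate together (correlations of -0.0345, 0.0183 and 0.0330). With so few pairs of libraries this gives no sign that the numbers pair the samples and cannot exclude it. With the replicate block, only endfeet libraries 1 to 3 are compared with whole astrocyte libraries. There 18 genes were lower (13.6% of all genes) and 2 higher (17.3% of all genes). Over single genes and alternatives, 788 values kept direction and side of the threshold, 56 passed it only under the alternative, 58 lost it and 26 changed sign, all of these for 7 genes that did not pass the test. Psmc1 was at -0.26 with voom, -0.058 with no filter, -0.15 with at least 10 counts in every library, -0.20 with the block, -0.087 with the coding transcript only, and -0.23 to 0.19 without 1 library (negative without endfeet library 1, 4 or 6). Psmd11 was at -0.47, -0.085, -0.97 and -0.011 under voom, the minimum of 10, the block and the coding transcript, -0.068 with transcripts summed, and -0.34 to 0.35 without 1 library (negative without endfeet library 4 or 6). Psmg2 was at 0.33 with the series covariate, 0.20 within the second series, 0.085 when thinned, and -0.81 to 0.14 without 1 library (positive without endfeet library 2 or 5). Psme1 was at -0.14 and -0.27 with the series covariate and within the second series, Psma8 at -0.30 and -0.92 with voom and the block, Psmf1 at 0.081 with the block, and Psmd1 at 0.00493 when thinned. The cause of these changes was not tested. The median of all genes moved by -0.39 with voom, -0.31 with the block, -0.25 within the second series, 0.13 with the DESeq2 Wald test, -0.13 with the coding transcript and 0.10 when thinned. The coding transcript alternative was chosen after seeing the data. Genes removed by a filter gave no value under it. Endfeet depth limits genes near 1 CPM.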

Other observations

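The polyubiquitin gene Ubb was at 61.02 ± 5.11 against 36.8 ± 13.2 CPM, with 5 of 6 endfeet TRAP libraries below, and did not pass the test (edgeR, adjusted p = 0.156). Rps27a, which encodes ubiquitin joined to a ribosomal protein, was at 0.879 ± 0.0357 CPM in the whole astrocyte TRAP libraries (SD, n = 3), a level near those of Psma5 and Psmb3. Of the enzymes bound to the proteasome, Usp14, which trims ubiquitin chains, was at 134 ± 7.81 against 69.2 ± 26.7 CPM with no overlap between the groups and just missed the threshold (log2 fold change -0.96, SE 0.35, adjusted p = 0.0501). The scaffold Ecpas, which bridges core and 19S particle, was at 91.6 ± 5.97 against 148 ± 67.1 CPM and was above in 6 of 6 endfeet TRAP libraries without passing the test (log2 fold change 0.69, SE 0.35, adjusted p = 0.142). Psmc3ip, the gene that carries a proteasome symbol without being a subunit, was at 12.4 ± 0.343 against 8.18 ± 6.91 CPM (log2 fold change -0.61, SE 0.92, adjusted p = 0.637), and 385 bases of its exons overlap exons of Mlx on the opposite strand.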
